A study of Homo sapiens with 16 samples.

Results

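ChIP signal was examined at the transcription start sites of 9 annotated genes, 8 receptor genes of the Eph A class and 1 antisense RNA gene, which are EPHA2, EPHA3, EPHA4, EPHA5, EPHA5-AS1, EPHA6, EPHA7, EPHA8 and EPHA10. Every window of the start site table that carried 1 of these symbols was taken, with each alternative start kept apart, together with every peak region within 100 kb of such a window. This gave 72 of the 272902 windows listed, or 63 of 237274 with distinct coordinates, and 16 of 16092 peak regions. The 63 windows fall into 27 groups of overlapping windows, and overlapping windows share reads. EPHA5, and with it EPHA5-AS1 on the opposite strand, was chosen from measured ChIP values of these libraries, while the other 7 genes came in by family name. The ChIP values of EPHA5 are therefore a description, given without a test.

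The cells were BJ-5ta, an established human fibroblast line that keeps dividing because it expresses telomerase (hTERT). They were either wild type or ΔLEO1, in which LEO1, a subunit of the RNA polymerase II-associated PAF1 complex, had been disrupted with CRISPR/Cas9, and the ΔLEO1 cells came from a single clone. Both genotypes were grown in 10% serum, where they proliferate, or held in 0.1% serum, where they become quiescent, and each combination gave 2 chromatin immunoprecipitation (ChIP) and 2 input libraries, replicates A and B. The labels name the antibody only as H3, whereas the design text and the methods give its target as H3K9me2, histone H3 with 2 methyl groups on lysine 9. Because there was 1 ΔLEO1 clone, effects of the clone and of LEO1 loss cannot be told apart.

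Eph receptors are cell surface tyrosine kinases that read ephrins on neighbouring cells. A class receptors bind mainly ephrin-A ligands, which are tethered to the membrane by a lipid anchor, and contact between receptor and ligand often drives cells or growing axons apart. H3K9me2 is a histone mark of silent chromatin, written mainly by the methyltransferases EHMT1 and EHMT2. ChIP over input is the number of reads recovered with the antibody relative to unselected chromatin. It is printed as a ratio of CPM, the read count scaled to a common library size, and because of the scaling a ratio near 1 is that of a typical start window. With the totals of the peak table as library sizes instead, the median window moved to -2.18, -1.92 and -1.63 (log2 ChIP over input; wild type in 10% and 0.1% serum, ΔLEO1 in 0.1% serum), and EPHA5 in wild type fell below input. All ratios are therefore relative to the typical start window. Differences in ChIP between genotypes or sera are relative to it in the same way, so that a shift shared by all windows would not show. A window was called when its Benjamini-Hochberg adjusted p over all windows tested was under 0.05 in edgeR's quasi-likelihood test.

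Of the 16 libraries, 15 were used. Their reads in start windows ranged from 2153836 to 3696942 in the 7 ChIP libraries and from 3267811 to 9238282 in the 8 inputs. ΔLEO1 ChIP replicate A in 10% serum held 54 reads and was left out, so that ΔLEO1 ChIP in 10% serum rests on 1 library and has no replicate check. The mark was read against genes of known use in fibroblasts, since there is no RNA in these tables. In wild type in 10% serum the starts of 9 genes used by fibroblasts, such as COL1A1 and VIM, had a median ChIP over input of 0.22 (range 0.0803 to 1.23). Those of 9 genes of other cell types had a median of 1.31 (0.495 to 2.94), and 6 of the 9 were above 1. Of all distinct windows tested against input, 103055 of 206129 were above 1 there. KRT14 (2.94) was the highest and SYP (0.495) the lowest. The window with most input reads stood for each gene, and it need not be the gene's main promoter. In ΔLEO1 in 0.1% serum the medians were 0.204 (0.115 to 1.27) and 1.67 (0.495 to 2.38). The fibroblast gene at 1.27 there was FN1, which was at 0.34 in wild type in 0.1% serum. Its ChIP difference between genotypes, 1.43 ± 0.46 (log2 ± SE), was not past the threshold (edgeR, adjusted p = 0.15).

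The sequence before the start is shown for 5 genes, so that the CG pairs of starts with much and with little of the mark can be set side by side. Each run holds the 250 bases upstream of a RefSeq start (build GRCh38.p14), 5′ to 3′ on the gene's own strand, with every CG in capitals. EPHA5, EPHA6 and EPHA7 are starts with ChIP above input in wild type, and EPHA2 and EPHA8 are starts with ChIP below it.
EPHA5, chr4:65670490-65670739, minus strand: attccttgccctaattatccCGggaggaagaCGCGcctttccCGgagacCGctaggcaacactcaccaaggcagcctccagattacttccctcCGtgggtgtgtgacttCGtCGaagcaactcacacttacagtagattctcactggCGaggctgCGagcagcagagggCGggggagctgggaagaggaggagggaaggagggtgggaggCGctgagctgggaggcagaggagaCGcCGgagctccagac
EPHA6, chr3:96814344-96814593, plus strand: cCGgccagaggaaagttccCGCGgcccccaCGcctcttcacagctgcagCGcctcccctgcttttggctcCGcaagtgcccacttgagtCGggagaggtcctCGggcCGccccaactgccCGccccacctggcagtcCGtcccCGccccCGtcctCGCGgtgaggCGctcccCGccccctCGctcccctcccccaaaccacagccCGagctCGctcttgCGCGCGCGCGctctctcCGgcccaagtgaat
EPHA7, chr6:93419560-93419809, minus strand: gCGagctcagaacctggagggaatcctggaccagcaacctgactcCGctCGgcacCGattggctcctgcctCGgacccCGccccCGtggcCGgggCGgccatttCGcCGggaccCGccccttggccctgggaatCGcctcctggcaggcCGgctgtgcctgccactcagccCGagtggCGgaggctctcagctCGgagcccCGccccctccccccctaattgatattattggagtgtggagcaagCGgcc
EPHA2, chr1:16156070-16156319, minus strand: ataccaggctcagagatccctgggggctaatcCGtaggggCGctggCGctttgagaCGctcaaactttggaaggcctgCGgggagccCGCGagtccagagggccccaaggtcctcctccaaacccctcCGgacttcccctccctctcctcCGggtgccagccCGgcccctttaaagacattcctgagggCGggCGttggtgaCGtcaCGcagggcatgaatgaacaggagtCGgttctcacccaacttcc
EPHA8, chr1:22563239-22563488, plus strand: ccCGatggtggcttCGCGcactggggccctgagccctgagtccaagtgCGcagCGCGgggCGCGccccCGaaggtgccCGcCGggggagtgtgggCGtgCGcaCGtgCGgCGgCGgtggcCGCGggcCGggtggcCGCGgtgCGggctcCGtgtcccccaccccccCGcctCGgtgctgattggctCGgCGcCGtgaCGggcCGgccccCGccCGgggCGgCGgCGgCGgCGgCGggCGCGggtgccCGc

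EPHA5, a receptor best known from axon guidance and the developing brain, has 5 distinct start windows, all within 1 group of overlapping windows on chromosome 4 that also holds the 3 distinct windows of EPHA5-AS1. The window with most ChIP reads is chr4:65669060-65671060, centred on a start at 65670060. In ChIP it held 29 and 24 reads in wild type in 10% serum and 32 and 25 reads in wild type in 0.1% serum. It held 6 reads in the ΔLEO1 library in 10% serum and 7 and 8 reads in ΔLEO1 in 0.1% serum. All 4 wild-type libraries stood above all 3 ΔLEO1 libraries, in either serum.

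Scaled to library size, the leading EPHA5 window had 10.2 ± 2.5 CPM (SD, n = 2) in wild type in 10% serum and 9.82 ± 0.324 (n = 2) in wild type in 0.1% serum. ΔLEO1 gave 2.97 CPM in 10% serum (1 library) and 2.58 ± 0.917 CPM (n = 2) in 0.1% serum. The ΔLEO1 minus wild type difference in ChIP was -1.72 ± 0.33 (log2 ± SE) in 0.1% serum and -1.51 ± 0.48 in 10% serum. Of 140885 distinct start windows tested, 60, this one included, had a difference as low as EPHA5 in 0.1% serum, or 0.0426% of them. Overlapping windows of EPHA5 and EPHA5-AS1, with differences down to -1.81, are among the 60. Since they share reads, this is not a count of independent windows. In 10% serum 1.12% of the windows were as low. EPHA5 was chosen from this contrast, in which edgeR called 0.359% of all distinct windows in 0.1% serum.

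Between sera in wild type, ChIP CPM at EPHA5 overlapped, with a 0.1% minus 10% serum difference of 0.03 ± 0.27 (log2 ± SE). With the input difference taken off it was -0.40 (log2). ChIP over input, given next, did not overlap between the 2 sera. Both replicates of a serum were divided by the same mean input, 2.89 CPM in 10% and 3.91 CPM in 0.1% serum. The replicate ratios thus carry no spread of the input, and their separation is not replicate evidence of a serum difference.

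**Figure D1:**
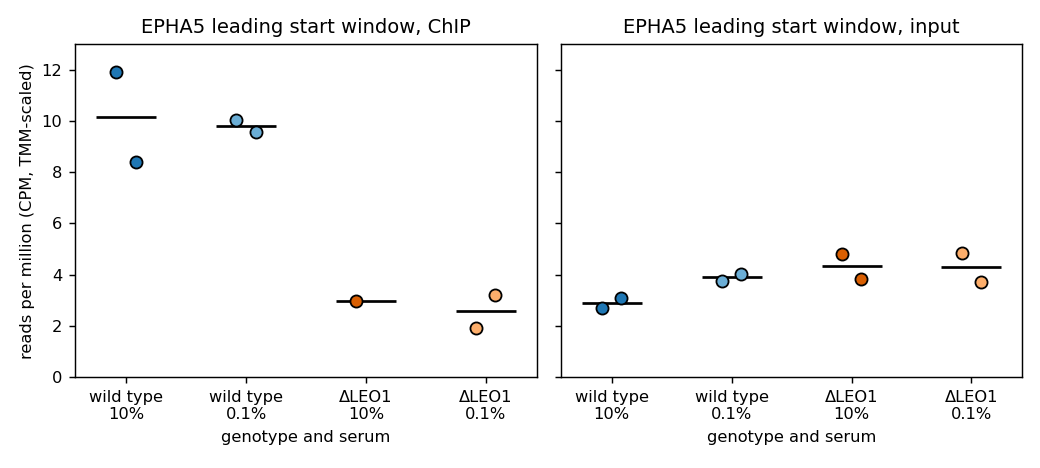
ChIP and input CPM (read count scaled to library size, y axis) at the leading EPHA5 start window in each library, ChIP on the left and input on the right, by genotype and serum (x axis); points are libraries and bars are means. ChIP was 8.38 to 11.9 CPM in the 4 wild-type libraries and 1.93 to 3.23 in the 3 ΔLEO1 libraries.

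ChIP over input at EPHA5 moved from the upper tail of all start windows to below the middle. In wild type in 10% serum the ratio was 3.66 and 2.62 in replicates A and B, and their joint value of 3.14 exceeded that of 94.5% of windows. In wild type in 0.1% serum it was 2.39 and 2.29, jointly 2.34 and above 92.2% of windows. In ΔLEO1 it was 0.72 in 10% serum, above 37.2% of windows, and 0.507 and 0.778 in 0.1% serum, jointly 0.643 and above 31.7% of windows. In ΔLEO1 the EPHA5 start thus lay below the level of a typical start in each of the 3 libraries, though on only 6, 7 and 8 ChIP reads. The fitted difference from input in ΔLEO1 was -0.68 ± 0.37 (log2 ± SE) in 0.1% serum and -0.43 in 10% serum.

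The other EPHA5 starts gave like values, since they share reads. Each library is named below in the order of the 2 wild-type replicates in 10% serum, the 2 in 0.1% serum, the ΔLEO1 library in 10% serum and the 2 in 0.1% serum. The window chr4:65668935-65670935 held 22, 25, 34, 26, 5, 8 and 8 ChIP reads. The window chr4:65669343-65671343 held 29, 24, 31, 23, 4, 8 and 6. The pair chr4:65669489-65671489 and chr4:65669495-65671495, which lie 6 bases apart, held 29, 22, 30, 21, 4, 7 and 5 reads and 29, 21, 29, 21, 4, 7 and 5 reads. In each of these windows the lowest wild-type library stood above the highest ΔLEO1 library. Over the 5 distinct windows the genotype difference in 0.1% serum ran from -1.81 to -1.71 (log2), and the wild-type 10% serum ratio from 2.77 to 3.14. EPHA5-AS1, an antisense RNA gene that starts inside the same stretch, cannot be told apart from EPHA5 in these counts, because ChIP reads have no strand of their own. Its leading window, chr4:65668961-65670961, held 24, 25, 34 and 26 ChIP reads in the wild-type libraries and 5, 7 and 8 in the ΔLEO1 libraries. Its other windows, chr4:65669530-65671530 and chr4:65669609-65671609, held 19 to 32 ChIP reads in wild type and 4 to 7 in ΔLEO1. The genotype difference of the leading EPHA5-AS1 window in 0.1% serum was -1.79 ± 0.33 (log2 ± SE).

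Input DNA at EPHA5 did not fall in ΔLEO1. The leading window held 17, 30, 28 and 29 input reads in wild type and 16, 34, 27 and 33 in ΔLEO1. Scaled among the inputs alone, this was 3.55 ± 0.641 CPM in wild type and 4.49 ± 0.632 CPM in ΔLEO1 (SD, n = 4 each). The difference of 0.938 CPM was not past the threshold (two-sided exact permutation test, p = 0.143, where the smallest p this design allows is 0.0286). In edgeR the genotype difference of input was 0.26 ± 0.20 (log2 ± SE, adjusted p = 0.999). Among the inputs, 0.0155% of distinct start windows were called between genotypes, and of the 63 member windows 0 were called (2 had an unadjusted p under 0.05, and DESeq2 called 0). Of all distinct windows fitted alone, 10595 of 206484 had such a p in edgeR.

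Start windows of other genes around EPHA5 had ChIP at or above the typical level in 0.1% serum. Within 1 Mb there were 28 distinct windows in 18 groups that do not overlap. In ΔLEO1 in 0.1% serum their ChIP over input ran from 1.2 to 2.85 with a median of 1.31, against 0.643 at EPHA5. In wild type in 0.1% serum they ran from 1.01 to 4.1 with a median of 1.62, and EPHA5 at 2.34 lay within that range. The median genotype difference of these neighbours in 0.1% serum was -0.57 (log2), with values from -0.87 to 0.3, and the median over all windows tested was -0.00349. Many of these windows are overlapping starts of LINC02232 that share reads, with differences from -0.87 to -0.667. They weigh on all the medians of the neighbours, which were not taken with 1 window per group. The median genotype difference of the neighbours' input was -0.23 (log2), and its part in their ChIP difference was not tested.

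**Figure D2:**
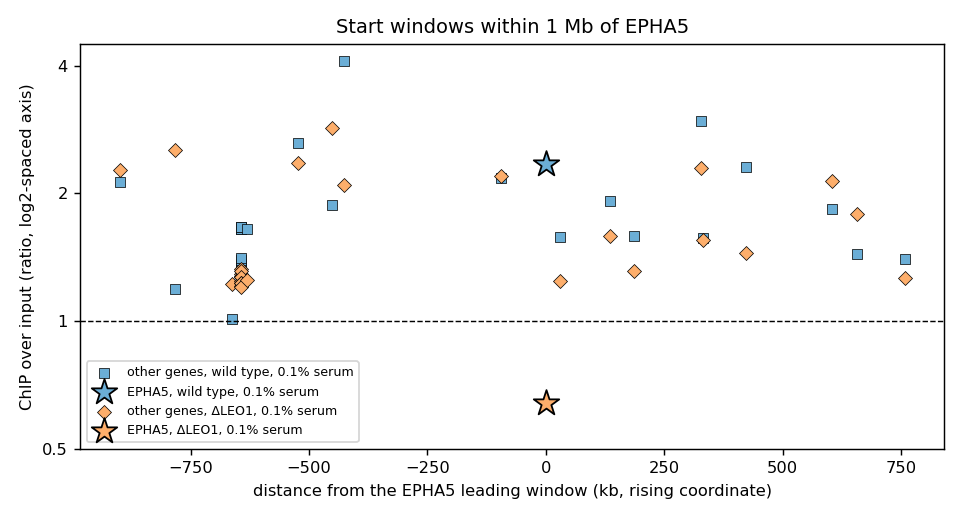
ChIP over input (y axis, log2-spaced) at start windows within 1 Mb of EPHA5 by distance in kb (x axis), in 0.1% serum; squares are wild type, diamonds ΔLEO1, and stars the EPHA5 leading window. EPHA5 sits at 2.34 in wild type and 0.643 in ΔLEO1, while the neighbours in ΔLEO1 sit between 1.2 and 2.85.

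Across these genes the mark separated genes and starts widely, with ratios relative to the typical start of 5.46 to 0.192 at the leading windows of the 27 groups in wild type in 10% serum. Of the 55 distinct windows of the other 7 genes, 29 were called higher in ChIP than input and 10 lower in wild type in 10% serum (edgeR), where 30.3% and 28% of all distinct windows were called. By groups of overlapping windows, 12 of 26 had a window called higher and 4 had one called lower. In wild type in 0.1% serum 27 windows were called higher and 11 lower, beside 26.4% and 26.8% of all windows. In ΔLEO1 in 0.1% serum 26 were higher and 12 lower, beside 27.8% and 27.3%. DESeq2 called 22, 16 and 14 higher in these 3 conditions. Windows of a group share reads, so that these counts are not counts of independent starts.

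**Figure D3:**
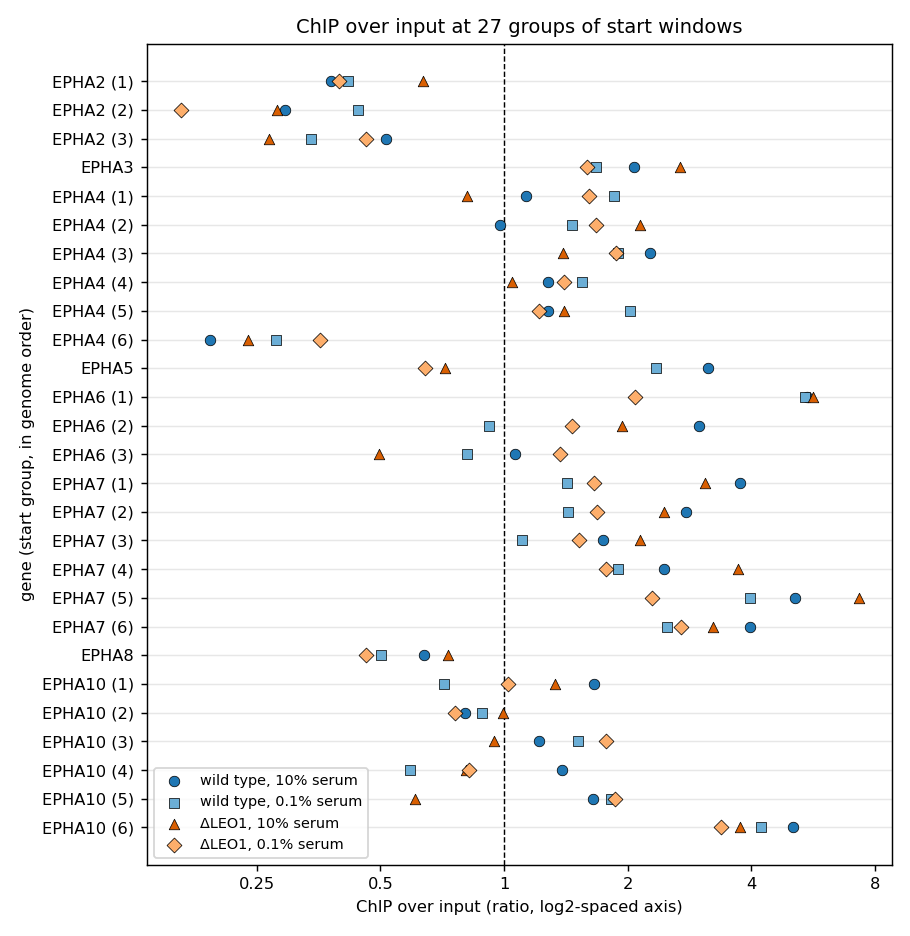
ChIP over input (x axis, log2-spaced) of the leading window of each of the 27 start groups (y axis, numbered in genome order within a gene) in the 4 conditions, shown by colour and shape. EPHA5 is at 3.14 and 2.34 in wild type and at 0.72 and 0.643 in ΔLEO1, whereas the 3 EPHA2 groups stay below 1, the typical start, in all conditions.

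EPHA6, a receptor known mainly from the nervous system, had the highest ratio of the leading windows in wild type in both sera. Its leading window, chr3:96813594-96815594, held 40 and 61 ChIP reads in wild type in 10% serum, 52 and 40 in wild type in 0.1% serum, 32 in ΔLEO1 in 10% serum and 30 and 22 in ΔLEO1 in 0.1% serum. ChIP over input was 5.46, 5.39, 5.66 and 2.08 in that order, so that the ΔLEO1 libraries in 0.1% serum were the low ones. The level in 0.1% serum was 15.8 ± 0.696 CPM in wild type and 8.57 ± 0.429 CPM in ΔLEO1 (SD, n = 2 each). The genotype difference there was -0.83 ± 0.24 (log2 ± SE), which was not past the threshold (edgeR, adjusted p = 0.0748). In 10% serum it was -0.23 ± 0.28, from 1 ΔLEO1 library. The farther starts of EPHA6 did not share this pattern. The window chr3:97438610-97440610 differed by 0.91 ± 0.33 (log2 ± SE, adjusted p = 0.212) in 0.1% serum, with 10 and 12 reads in wild type and 26 and 21 in ΔLEO1.

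EPHA7, a receptor of neural development, had ChIP above input at each of its 6 start groups in wild type in 10% serum, where its 15 distinct windows were all called higher. Over all distinct windows 30.3% were called higher there, and windows of a group share reads. The leading window, chr6:93416382-93418382, held 35 and 60 ChIP reads in wild type in 10% serum and 41 in ΔLEO1 in 10% serum. In 0.1% serum it held 24 and 32 reads in wild type and 28 and 15 in ΔLEO1. ChIP over input was 5.11 and 7.3 in 10% serum (wild type and ΔLEO1) and 3.96 and 2.3 in 0.1% serum. The genotype difference in 0.1% serum was -0.41 ± 0.27 (log2 ± SE, edgeR adjusted p = 0.625). It was -0.73 without wild-type replicate A and -0.07 without wild-type replicate B. The serum difference in wild type was -0.79 ± 0.23 (adjusted p = 0.115), and the wild-type replicates of the 2 sera did not overlap in CPM. It ran from -1.14 without wild-type replicate B in 0.1% serum to -0.47 without replicate A.

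In ΔLEO1 the serum difference of the leading EPHA7 window was -1.40 ± 0.31 (log2 ± SE, edgeR adjusted p = 0.0158), and that of the overlapping window chr6:93416160-93418160 was -1.46 ± 0.31 (adjusted p = 0.0115). These were the 2 of 41 windows of the other 7 genes called in that comparison, beside 0.0632% of all windows, and its 10% serum side is 1 library, assumed to vary like the other groups. DESeq2 called 0 of the 41, and edgeR called 0 without either ΔLEO1 replicate in 0.1% serum. The comparison was added after its values were seen.

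EPHA10, whose kinase domain is held to be inactive, had its highest ratio at its most upstream of 6 start groups. In wild type in 10% serum the window chr1:37764066-37766066 had a ratio of 5.04, and the leading windows of the other 5 groups had 0.805 to 1.66. Its ChIP reads were 39 and 53 in wild type in 10% serum, 51 and 39 in wild type in 0.1% serum, 26 in ΔLEO1 in 10% serum, and 38 and 18 in ΔLEO1 in 0.1% serum. The genotype difference in 0.1% serum was -0.70 ± 0.23 (log2 ± SE, adjusted p = 0.17), a fall from 15.5 ± 0.746 to 8.86 ± 2.27 CPM (SD, n = 2 each) that did not pass the threshold, though the replicates did not overlap.

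EPHA3, a receptor of mesenchymal and neural development, lay between these genes and the typical window. Its leading window, chr3:89106621-89108621, held 15 to 24 ChIP reads in the 7 libraries, with ChIP over input of 2.08 and 1.68 in wild type in 10% and 0.1% serum and 2.68 and 1.59 in ΔLEO1. The genotype groups overlapped in 0.1% serum, with a difference of -0.37 ± 0.30 (log2 ± SE, adjusted p = 0.695).

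EPHA4, which binds ephrins of both classes, had starts above and below the typical window, the lowest ratio of the 27 leading windows in wild type in 10% serum among them. Its most read window, chr2:221436496-221438496, is an internal start with ratios of 2.27 and 1.9 in wild type (10% and 0.1% serum) and 1.39 and 1.88 in ΔLEO1. At the group of its upstream starts the window chr2:221573158-221575158 held 1 to 6 ChIP reads a library against 20 to 54 input reads, with ratios of 0.192, 0.278, 0.238 and 0.357 in the same order. The 6 distinct windows of that group, which share reads, were each called lower than input in the 3 conditions tested. Beside them, 28%, 26.8% and 27.3% of all distinct windows were called lower (wild type in 10% and 0.1% serum, ΔLEO1 in 0.1% serum). The internal window differed by -0.33 ± 0.28 (log2 ± SE, adjusted p = 0.717) between genotypes in 0.1% serum, and by -0.06 without ΔLEO1 replicate A and -0.54 without ΔLEO1 replicate B.

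EPHA2, a receptor that many epithelial and mesenchymal cells use, was below input throughout. Its 4 distinct windows, in 3 groups, were called lower than input in each of the 3 conditions tested, beside 28%, 26.8% and 27.3% of all distinct windows. The leading window, chr1:16155052-16157052, held 2 to 8 ChIP reads a library, and its ratio was 0.516 and 0.339 in wild type and 0.267 and 0.462 in ΔLEO1 (10% and 0.1% serum). EPHA8, another receptor of the nervous system, was low as well, with 1 to 4 ChIP reads at chr1:22562489-22564489 and ratios of 0.639, 0.503, 0.731 and 0.46 in the same order. Neither gene had a window with enough ChIP reads for the tests between ChIP libraries. A change in the mark was thus not detectable at this depth at EPHA2 or EPHA8.

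In the order of wild-type 10% serum ratios of the leading windows, EPHA6 (5.46), EPHA7 (5.11) and EPHA10 (5.04) differed by less than the spread of their replicates. EPHA5 (3.14) came next, with both replicates below those of EPHA10 and just above those of EPHA4 (2.27). EPHA4 and EPHA3 (2.08) overlapped, and so did the last, EPHA8 (0.639) and EPHA2 (0.516). In ΔLEO1 in 0.1% serum EPHA5 (0.643) stood between EPHA3 (1.59) and EPHA2 (0.462), and its replicates overlapped those of EPHA2.

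The comparison between genotypes in quiescent cells asks where LEO1 loss goes with a mark changed relative to the typical window. Apart from EPHA5 and EPHA5-AS1, 41 distinct member windows in 21 groups had enough reads to be tested, and 0 were called in 0.1% serum (edgeR). At an unadjusted p under 0.05 there were 10, of which 5 were EPHA6, 4 EPHA10 and 1 EPHA4 windows. Among all distinct windows fitted alone, 15301 of 140885 had such a p in edgeR. DESeq2 called 0, with 3 members and 2031 of 159524 listed windows at such a p. Over all distinct windows 0.359% were called. The smallest adjusted p among these members was 0.0631, at an EPHA6 window that overlaps the leading one. Their median difference was -0.22 (log2), beside -0.00349 over all windows tested. Windows of a group share reads and 15 of the 41 are EPHA7 windows, so that this is not a median of independent starts. By gene the medians were -0.445 (EPHA3), -0.446 (EPHA4), -0.215 (EPHA7), 0.488 (EPHA6) and 0.205 (EPHA10). For the serum comparison in wild type 0 of the 41 were called (9 at an unadjusted p under 0.05, DESeq2 0), beside 0.251% of all windows, and the smallest adjusted p was 0.0974. Of all distinct windows fitted alone, 13460 of 140885 had an unadjusted p under 0.05 in that comparison. The test of whether the genotype difference itself changed with serum called 0 of the 41 and 0% of all windows, with 0 members at an unadjusted p under 0.05. With 1 ΔLEO1 ChIP library in 10% serum, that test has little to go on.

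**Figure D4:**
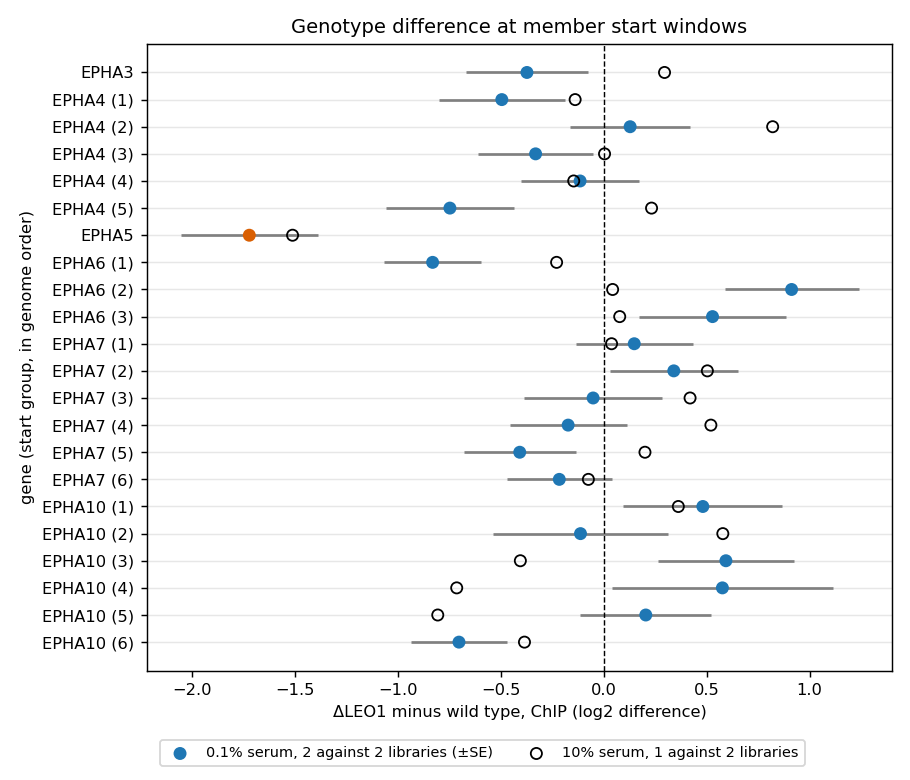
ΔLEO1 minus wild type difference of ChIP (x axis, log2) at the leading window of the 22 start groups tested (y axis, numbered in genome order within a gene); filled points are 0.1% serum with bars of 1 SE, and open points are 10% serum, where ΔLEO1 has 1 library. EPHA5 is at -1.72 and -1.51, and the next lowest point in 0.1% serum is EPHA6 at -0.83.

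Peak regions gave a second reading of the same loci, in regions the authors merged from their own peak calls. Of the 16 regions within 100 kb of a member window, 8 were nearest EPHA6, 3 EPHA7, 2 EPHA4, and 1 each EPHA5, EPHA8 and EPHA10. The annotation in the table placed 8 of them on repeats such as long terminal repeats and LINE elements, 4 in intergenic sequence, 2 at promoters and 2 on CpG islands. The EPHA5 region, chr4:65670249-65671060, is annotated as promoter and lies inside the start windows. Its ChIP reads were 17 and 10 in wild type in 10% serum, 20 and 12 in wild type in 0.1% serum, 1 in ΔLEO1 in 10% serum, and 2 and 2 in ΔLEO1 in 0.1% serum. ChIP over input was 3.23 and 2.86 in wild type and 0.439 and 0.507 in ΔLEO1 (10% and 0.1% serum). As at the windows, the genotypes did not overlap, and the difference in 0.1% serum was -1.97 ± 0.65 (log2 ± SE). These reads are in part those of the windows and add no separate evidence.

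The 15 regions near the other genes had ChIP over input of 1.6 to 8.57 in every condition, ΔLEO1 included. Regions called as peaks tend to lie above input by that choice, so that these ratios are a description only. The 8.57 is ΔLEO1 in 10% serum at chr3:97352770-97353672, from 1 ChIP library over inputs of 1 and 11 reads. Of these, 0 were called between genotypes in 0.1% serum by edgeR or DESeq2, beside 0.0621% of all regions in edgeR. In edgeR 1340 of all 16092 regions had an unadjusted p under 0.05, and 1 of these 15 did. That region was the EPHA6 promoter region chr3:96813267-96814709, with 42 and 27 reads in wild type, 18 and 13 in ΔLEO1 and a difference of -0.81 ± 0.32 (log2 ± SE, adjusted p = 0.415). The region with most ChIP reads near EPHA7, chr6:93282375-93283056 on an LTR12C repeat, had 26 and 26 reads in wild type and 29 and 18 in ΔLEO1 and a difference of 0.11 ± 0.31 (log2 ± SE, adjusted p = 0.954). Near EPHA4 the region chr2:221640966-221642356 differed by -0.47 ± 0.32, near EPHA10 the CpG island region chr1:37764242-37765408 by -0.23 ± 0.30, and near EPHA8 the region chr1:22611307-22612332 by -0.44 ± 0.32 (log2 ± SE), with adjusted p of 0.728, 0.893 and 0.752 in edgeR. The EPHA6 promoter region tied in ChIP reads with chr3:97510327-97511616 on an L1PA7 repeat, which differed by -0.11 ± 0.29 (log2 ± SE). The farthest region taken in lay 84938 bases from an EPHA6 window and differed by -0.05 (log2). The nearest one left out lay 100058 bases from an EPHA5-AS1 window, at chr4:65771667-65772376, and differed by -0.59.

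RefSeq held 13 promoters for 8 of the 9 genes. CG pairs, which are counted once because the motif reads the same on both strands, numbered 14 in the EPHA5 run printed above, 26 in EPHA6, 19 in EPHA7, 15 in EPHA2 and 42 in EPHA8. The median over 35116 RefSeq promoters was 11, and 44.8%, 19.6%, 34.6%, 42.9% and 1.38% of them held at least as many. A second EPHA5 promoter, chr4:65669489-65669738, which is not printed, held 23 CG pairs, and 25.8% of all promoters held at least as many. High and low ChIP over input thus both occurred at starts with more CG pairs than the median. An upstream EPHA4 start with 30 CG pairs had a ratio of 0.228 in wild type in 10% serum, and a downstream EPHA6 start with 1 had 2.99. The motif GGGCGG, the letters of a GC box, counted on both strands, was found 1, 4, 4, 1 and 2 times in these runs in the same order, and 42.6% of all promoters held it. TATAAA was found in none of the 5 runs, and 10.7% of all promoters held it on either strand. The promoter before another EPHA7 start, chr6:93417383-93417632, held it 2 times.

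**Figure D5:**
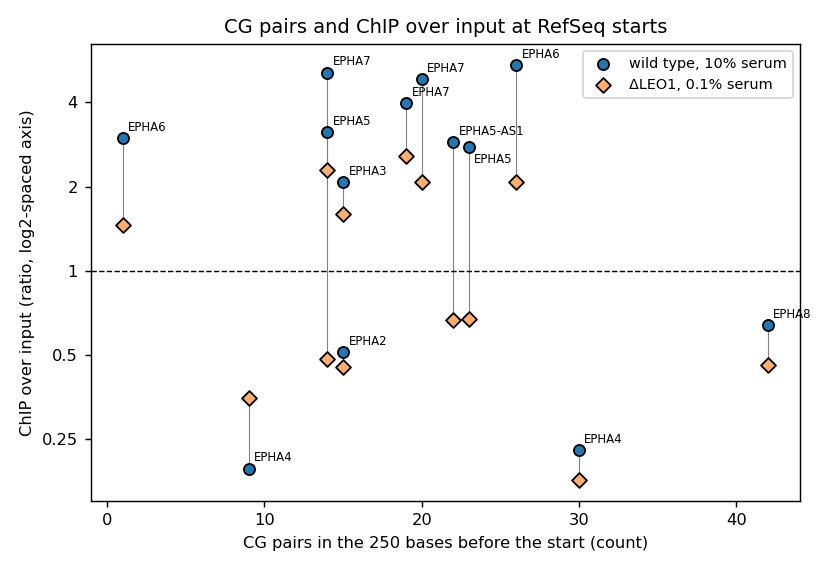
ChIP over input (y axis, log2-spaced) at the start windows of the 13 RefSeq promoters of member genes by the number of CG pairs in the 250 bases before the start (x axis); circles are wild type in 10% serum and diamonds ΔLEO1 in 0.1% serum, joined by a line. EPHA8, with 42 pairs, is at 0.639 and EPHA6, with 26 pairs, at 5.46 in wild type.

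The ligands and the B class receptors were read from the same table as a wider view of the pathway. The 13 genes EPHB1, EPHB2, EPHB3, EPHB4, EPHB6, EFNA1 to EFNA5 and EFNB1 to EFNB3 had 58 distinct start windows. Of 47 windows tested against input in wild type in 10% serum, 4 in 2 genes were called higher and 23 in 9 genes lower, beside 30.3% and 28% of all windows, and the median was -0.83 (log2). Quiescent wild type had 6 called higher and 22 lower, beside 26.4% and 26.8%. In ΔLEO1 in 0.1% serum 5 were called higher and 23 lower, beside 27.8% and 27.3%. Between genotypes in 0.1% serum 0 of 13 tested windows were called (edgeR, 2 at an unadjusted p under 0.05), beside 0.359%, and DESeq2 called 0 of all windows. Of all distinct windows fitted alone, 15301 of 140885 had such an unadjusted p in edgeR. EPHB1, a receptor for ephrin-B ligands, had the highest ratio of the leading windows in wild type in 10% serum, at 2.15, and 1.79 in ΔLEO1 in 0.1% serum. EFNB2, a membrane-spanning ligand, followed at 2.03 and 1.88. EFNA4, an ephrin-A ligand, had the lowest, at 0.433 and 0.198.

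Among start windows outside the family with a mean ChIP level within a factor of 2 of EPHA5, the 5 genes whose CPM followed the leading EPHA5 window most closely over the 7 ChIP libraries were UMOD on chromosome 16, GAK on chromosome 4, PTPMT1 on chromosome 11, IZUMO1 on chromosome 19 and DNAI2 on chromosome 17. Their Pearson r on log2 CPM was 0.995, 0.992, 0.991, 0.989 and 0.988. At UMOD, ChIP was 9.08 to 10.3 CPM in the 4 wild-type libraries and 2.2 to 3.63 CPM in the 3 ΔLEO1 libraries. Of the 112102 windows compared, 0.909% had an r above 0.9. These are descriptions over 7 libraries that share their depth and scaling, and windows chosen for likeness differ between the genotypes by that choice.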

How the data were processed

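Chromatin immunoprecipitation and input DNA were sequenced in BJ-5ta fibroblasts of 2 genotypes in 2 sera, with 2 libraries per group. The labels do not say that replicates came from separate cultures, so p-values measure the spread between libraries, which may be technical. The deposited values are raw counts of reads per 2000-base start window and per merged peak region, on build hg38 per the submitters' processing notes, which also list dm6, bcl2fastq 2.20.0.422, STAR 2.7.10a and HOMER. According to the methods of the study, the authors scaled to spiked-in fly chromatin, and those factors were not used here. With the fly chromatin as scale, the paper reports a global increase of H3K9me2 in quiescent ΔLEO1 cells. A shift shared by most windows can be neither seen nor excluded with the scaling used here. The peak caller and the handling of duplicates are not given in the sources used here. Whether LEO1 was disrupted cannot be read from these DNA counts.

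Counts were fitted with edgeR 4.0.16 in R 4.3.3 (TMM scaling, filterByExpr with a minimum count of 10, quasi-likelihood test, prior count 2, Benjamini-Hochberg threshold 0.05), over all windows or all regions, with 1 coefficient per group (genotype and serum terms for input). Tests between ChIP libraries used the 7 ChIP libraries, those against input all 15, and those of input the 8 inputs. SE is the log2 difference divided by the square root of F. The 35628 windows that repeat the coordinates of another were kept in the fit and counted once in the text. ChIP over input was (CPM + 0.5) divided by (mean input CPM of the condition + 0.5). ChIP reads of a window were few, so that counting error is a large part of each value, and intervals cover no PCR duplicates. The replicate letters showed little sign of pairing the libraries. The r of A minus B differences was 0.00557, 0.00326 and 0.0174 between the 3 groups with both ChIP replicates, and 0.0122 to 0.11 between the 4 input groups. Counting error lowers such an r, so that it cannot exclude pairing. Alternatives were no filter, no TMM, the other table's totals, DESeq2 1.42.0, distinct windows alone, the replicate letter as a block, only the libraries compared, the shallow library kept, the input difference taken off, and each replicate left out.

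The genes and the lists (pathway, marker, likeness) were chosen with earlier results of these data known. Of the marker list, 1 gene is not reported here. The serum comparison in ΔLEO1 and its alternatives were added after the data were seen. For each gene the window and the peak region with most ChIP reads were named, with any other past the threshold; the EPHA6 window at 97438610 was named after its values were seen. Likeness was Pearson's r over the 7 ChIP libraries, for windows with a mean level within a factor of 2, and 1 window per symbol. Of the columns of counts, 0 were left without a sample.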

Additional observations from a re-analysis of the deposited data

Results flagged for a closer look

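At the leading EPHA5 start window, ChIP over input (log2 of the ratio, relative to the typical start window) had opposite signs in the 2 genotypes, in every library. The ΔLEO1 side rests on 6 to 8 ChIP reads a library. In 0.1% serum it was -0.638 in ΔLEO1 and 1.23 in wild type, and in 10% serum -0.474 in ΔLEO1 (1 library) and 1.65 in wild type. At the leading window of EPHA5-AS1, which shares most of these reads, it was -0.583 and 1.25 in 0.1% serum and -0.713 and 1.53 in 10% serum. With the input difference taken off, the genotype difference in ChIP at the leading EPHA5 window was -1.93 ± 0.46 (log2 ± SE) in 0.1% serum. It is given as a description without a p-value, since EPHA5 was chosen from measured ChIP values.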

How the results depend on the processing

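Of the recomputed counts of called windows and EPHA5 and input values, 160 stayed, 18 moved further and 2 reversed. Counts stayed when within 1.5 times, and EPHA5 values when within their spread. Input CPM differences stayed when the sign and the side of p = 0.05 held in the exact permutation test. Without a replicate the smallest p that test allows is 0.0571, so that it could not have passed. With the totals of the peak table as library sizes, 2 windows of the other genes were called between genotypes (both higher in ΔLEO1), 0 were called above input in each condition, with 38, 47 and 40 below it (wild type in 10% and 0.1% serum, ΔLEO1 in 0.1% serum), and the EPHA5 difference from input was -0.61, -0.76 and -2.27 (log2). Those totals also turned the serum difference of EPHA10 to 0.0479 and of EPHA3 to 0.104. DESeq2 called 16 and 14 windows above input in 0.1% serum (wild type, ΔLEO1), and gave 1.19 for EPHA5 in wild type, where omitting TMM gave 1.14. Taking off the input difference moved the EPHA5 serum difference to -0.40. With the replicate letter as a replicate block, 0 windows of the other genes were called between genotypes and between wild-type sera, and the 39, 38 and 38 windows called against input were the same. The EPHA5 genotype difference was -1.73 in 0.1% serum and -1.44 in 10% serum. The serum comparison in ΔLEO1, added after the data were seen, called 2 EPHA7 windows, and 0 with the block, with DESeq2, with the peak table's totals or without either ΔLEO1 replicate in 0.1% serum. The leading EPHA7 window then had -1.19, -1.51, -1.17 and -1.59 to -1.31 (log2).

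Leaving out each replicate in turn, 0 windows were called between genotypes, between sera, in input and in peaks, and 24 to 29, 20 to 24 and 16 to 24 above input. Without ΔLEO1 replicate B in 0.1% serum the last count was 17 (ChIP) and 16 (input). The EPHA5 genotype difference in 0.1% serum ran from -1.99 to -1.37, its serum difference from -0.22 to 0.26, and its differences from input from 1.36 to 1.84, 1.14 to 1.29 and -1.06 to -0.42. The input CPM difference ran from 0.69 to 1.16. The genotype difference of EPHA3 ran from -0.83 to 0.13, and the serum differences of EPHA3 and EPHA10 from -0.25 to 0.16 and from -0.20 to 0.00037. The causes were not tested.

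Relative to the typical window, edgeR called 130 higher and 424 lower over all listed windows between genotypes in 0.1% serum. DESeq2 called 0, as did edgeR with the shallow library kept, while the peak table's totals gave 2152 and 145 (median of all windows 0.27), only the compared libraries 90 and 203, and leaving out a replicate 7 and 40 to 37 and 108. Between sera the main counts were 116 and 315, against 0 with DESeq2, 0 and 5 with the shallow library kept, and from 3 and 4 to 12 and 145 without a replicate (25 and 131 without wild-type replicate B in 0.1% serum). Between sera in ΔLEO1 they were 20 and 81, against 0 with DESeq2, 9 and 57 with the block, 91 and 21 with the peak table's totals (median 0.24), and 2 and 31 or 6 and 23 without a ΔLEO1 replicate. In input 36 were lower, against 0 with DESeq2 and from 0 to 2 higher and 37 lower without a replicate (0 without wild-type replicate A in either serum, or without ΔLEO1 replicate B in either serum). Of peak regions 2 were higher and 8 lower between genotypes, against 0 with DESeq2 or the shallow library kept, 1 and 91 with the other table's totals, and from 0 (without ΔLEO1 replicate A) to 3 and 3 without a replicate. At these few reads a window, small changes in the mark were not detectable.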
